A study of Mus musculus with 8 samples.

Results

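The genes described here carry antigen to the cell surface: 57 of the 25240 gene symbols in a table of RNA counts from mouse kidney cells. They were chosen by name, as the 44 symbols that begin with H2-, the mouse major histocompatibility complex (MHC), and 13 further genes of peptide supply, loading and control (B2m, Tap1, Tap2, Tapbp, Tapbpl, Psmb8, Psmb9, Psmb10, Nlrc5, Ciita, Cd74, Erap1 and Cd1d1). The rule itself uses no measured value. The table held 8 libraries of p16-tdTomato mice, 4 of Tomato-positive and 4 of Tomato-negative cells. All came from the kidneys of animals with chronic kidney disease brought on by an adenine diet, so the Tomato-negative cells carry the disease and the genotype too. In the name of the genotype, p16 is an inhibitor of the cell cycle used as a mark of senescence, and tdTomato a red fluorescent protein. The labels give no strain, age or design of the reporter. Each of the identifiers CKD627_1, CKD627_2, CKD523_2 and CKD523_3 in the titles was shared by 1 library of each Tomato group, and these pairs were compared. The meaning of the prefixes CKD627 and CKD523 is not in the labels, nor do they say that libraries came from separate animals. The p-values therefore measure the spread between these samples.

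MHC class I molecules hold a heavy chain and the light chain beta-2-microglobulin, and show peptides from inside the cell to CD8 T cells. Those peptides are cut by the proteasome, whose catalytic subunits are exchanged for the immunoproteasome subunits under interferon, carried into the endoplasmic reticulum by the transporter TAP, trimmed by Erap1 and loaded with the help of tapasin. Class II molecules are pairs of an alpha and a beta chain that show peptides from endosomes to CD4 T cells; the invariant chain Cd74 guards their groove and the DM molecules exchange its last fragment for peptide. Class II is best known from dendritic cells, macrophages and B cells, and tubule cells of injured kidneys can make it as well. The coactivators Nlrc5 (class I) and Ciita (class II) bind a shared complex of RFX, CREB and NF-Y factors on the promoters of each class.

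Library totals lay between 13474439 and 19886202 counts. The tdTomato transgene had 54445 to 82396 counts in the Tomato-positive libraries, against 1215 to 2588 in the Tomato-negative libraries. All libraries are labelled as proximal tubular epithelial cells, and proximal tubule genes were present (19 of 20 markers tested), with a summed level of 5083 to 14640 CPM in Tomato-positive and 7717 to 34420 CPM in Tomato-negative libraries. CPM here means counts per 1000000 of a library total scaled by TMM, edgeR's trimmed mean of M values. Genes of other segments were high too: markers of the loop of Henle summed to 2082 to 7356 CPM in Tomato-positive and 4437 to 15220 CPM in Tomato-negative libraries. Of the 10 principal cell markers of the collecting duct, 9 passed the paired test as higher in Tomato-positive cells, against 3.82% of all genes. Those passing as lower were 8 of 19 proximal tubule, 6 of 9 loop of Henle, 4 of 7 distal tubule and 3 of 9 intercalated cell markers. Over all 14284 genes, 544 passed as lower. In these bulk samples, fewer cells of a type and less RNA per cell cannot be told apart.

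Of the 57 genes, 34 had enough counts to be tested, 9 had between 1 and 32 counts over the 8 libraries, and 14 had none. Enough meant the equivalent of 10 counts at the median library total in 4 libraries, and 15 counts in all. A library with no count of a gene allows up to 3 counts, which is 0.151 to 0.223 CPM at these depths and covers counting error only. The 14 were H2-Ea, H2-M1, H2-M9, H2-M11, H2-M10.1, H2-M10.2, H2-M10.3, H2-M10.4, H2-M10.6, H2-Q7, H2-Q8, H2-Q9, H2-T3 and H2-T9. Among these, H2-Ea, H2-Q8, H2-Q9 and H2-T9 had no single match in GENCODE M21, the annotation used here for positions. Whether reads could be counted for them is not known, so that bound may not hold there. The 9 with few counts were H2-T22 (32), H2-Q10 (31), H2-Ob (20), H2-Oa (19), H2-Bl (16), H2-M5 (10), H2-M10.5 (4), H2-Eb2 (4) and H2-L (1). Tested members were 12 of the 31 class I heavy chains, 7 of the 11 class II genes and all 8 genes of peptide supply and loading. The others tested were B2m, both coactivators, Cd1d1, the pseudogenes H2-K2 and H2-T-ps, and H2-Ke6, which bears an H2 name for its place and codes for a steroid dehydrogenase. Class I genes are near-identical in long stretches, and the labels and headers do not say how reads with several matches were counted, so the split of counts among H2-K1, H2-D1 and the H2-Q and H2-T genes is uncertain.

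The promoters below are shown because members of each class share control elements. They are the 180 bases before the start of 4 members on chromosome 17, from RefSeq (GRCm38.p6), read 5′ to 3′ on the strand of the gene. Capitals mark matches to 3 motifs on either strand: GAANNGAAA, the core of the element bound by interferon regulatory factors, GGGATTNCC, bound by NF-kappaB, and GATTGG, the Y box bound by NF-Y.
H2-K1, chr17:34000348-34000527, minus strand: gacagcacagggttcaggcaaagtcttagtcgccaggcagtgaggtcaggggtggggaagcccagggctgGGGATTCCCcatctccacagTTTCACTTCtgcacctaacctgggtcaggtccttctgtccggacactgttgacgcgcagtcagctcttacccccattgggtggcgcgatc
H2-Q4, chr17:35379437-35379616, plus strand: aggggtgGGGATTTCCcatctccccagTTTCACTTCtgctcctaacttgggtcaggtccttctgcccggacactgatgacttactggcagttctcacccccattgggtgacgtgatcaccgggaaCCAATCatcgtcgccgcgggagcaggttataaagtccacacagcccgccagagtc
H2-Aa, chr17:34287824-34288003, minus strand: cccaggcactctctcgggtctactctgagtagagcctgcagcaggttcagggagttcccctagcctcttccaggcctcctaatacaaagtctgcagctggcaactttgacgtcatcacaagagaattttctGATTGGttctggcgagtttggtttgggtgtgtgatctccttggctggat
H2-Eb1, chr17:34305687-34305866, plus strand: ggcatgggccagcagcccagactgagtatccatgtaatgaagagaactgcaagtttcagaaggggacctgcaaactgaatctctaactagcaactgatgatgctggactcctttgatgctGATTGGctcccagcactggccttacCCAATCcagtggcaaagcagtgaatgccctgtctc
In H2-K1 the NF-kappaB motif began 110 bases and the interferon motif 90 bases before the start, and in H2-Q4 they began 173 and 153 bases before it. In H2-Aa and H2-Eb1 the Y box began 49 and 60 bases before the start, and H2-Eb1 held another, on the opposite strand, 35 bases before it. The class I gene H2-Q4 held a Y box too, on the opposite strand, 55 bases before its start. Of the 57 members, 39 had a promoter entry with 250 bases before the start. The interferon motif stood in 8 of them, all class I heavy chains (H2-D1, H2-K1, H2-M2, H2-M3, H2-Q10, H2-Q4, H2-Q6 and H2-Q7), against 6.31% of all 32851 promoters. The NF-kappaB motif stood in 5 (H2-D1, H2-K1, H2-Q4, H2-Q6 and H2-Q7), against 0.822% of all promoters, and the Y box in 27, against 14.6%. No motifs overlapped in the sequences shown, and a match describes the letters only.

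Antigen presentation genes lay slightly higher in Tomato-positive than in Tomato-negative cells of the same identifier, and few of them did so beyond the spread between pairs. The estimated difference was positive for 30 of the 34 tested members, against 50.5% of all 14284 genes, and its median was 0.29 on the log2 scale, against 0.01 for all genes. Of the members, 1 passed edgeR's quasi-likelihood test with pairing after Benjamini-Hochberg adjustment over all genes (threshold 0.05), the invariant chain Cd74, which rose. Over all genes, 7.62% passed in either direction and 3.82% as higher in Tomato-positive cells, so the members' share was not above that of the table. At an unadjusted p under 0.05 stood 7 members (Cd74, H2-Aa, H2-Eb1, H2-Q4, H2-Q5 and Nlrc5 as higher, H2-Ke6 as lower), against 25.0% of all genes. In all 4 pairs 11 members were higher in the Tomato-positive library (B2m, Cd74, Erap1, H2-Aa, H2-DMb1, H2-Eb1, H2-K2, H2-Q4, H2-Q5, H2-Q6 and Nlrc5), against 17.9% of all genes. For 3 members, H2-K2, H2-Q5 and Nlrc5, the 4 Tomato-positive libraries lay above the 4 Tomato-negative ones, while the groups did not overlap for 13.2% of all genes. Without the pairing no member passed (0.595% of all genes did), and 3 had an unadjusted p under 0.05. DESeq2 with pairing called 5 of the 34 members, Cd74, H2-Aa, H2-Q4, H2-Q5 and Nlrc5, all as higher, against 2026 of all 14284 genes. With limma-voom Cd74 alone was called, against 1389 of all genes.

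**Figure D1:**
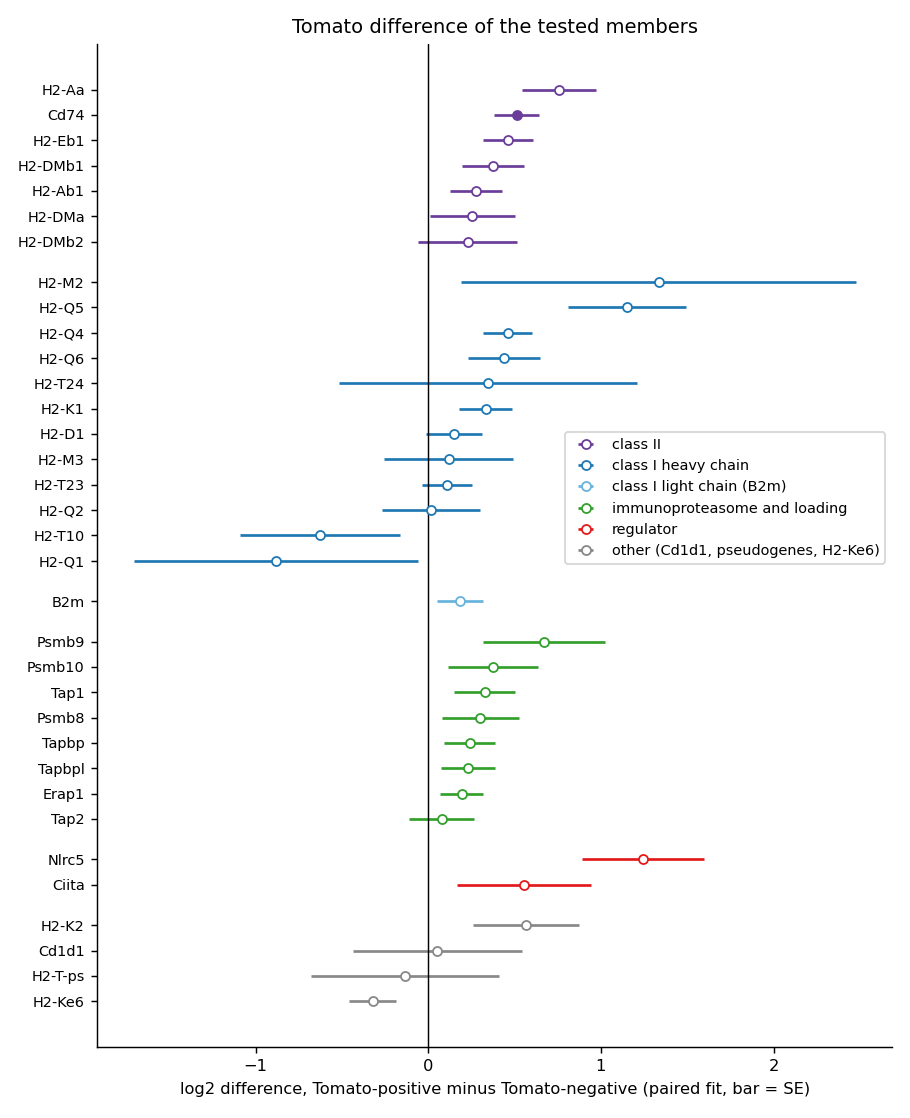
Log2 difference of each tested member between Tomato-positive and Tomato-negative cells (x axis, positive means higher in Tomato-positive, paired edgeR fit, bars are the SE, 4 pairs), with genes down the page by role; a filled point has an adjusted p under 0.05. Cd74 is the filled point, all 7 class II genes lie right of 0, and the widest bar is that of H2-M2.

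Class II genes had a higher median difference than class I heavy chains, an order that turned when pair CKD523_2 was left out. All 7 tested class II genes had a positive estimate, with a median of 0.37 on the log2 scale and a range of 0.23 to 0.76, and 1 of them, Cd74, passed the test. Cd74 (chr18:60803848-60812652) had 161 and 275 CPM in CKD627 and 417 and 446 CPM in CKD523 in Tomato-positive cells, against 123 and 166 CPM in CKD627 and 281 and 349.6 CPM in CKD523 in Tomato-negative cells. In such lists the lower identifier number of a prefix comes before the higher. Every Tomato-positive library was above its partner, and the Tomato groups overlapped, with the CKD627 libraries low in both. The log2 difference was 0.51 ± 0.13, with an adjusted p of 0.0499 in edgeR, barely inside the threshold; the error of every log2 difference of a gene is the SE of the fit. Over the alternatives that adjusted p ranged from 0.00713 to 0.542, and it was 0.542 without pairing.

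The 3 tested class II chain genes lie together on chromosome 17. H2-Aa (chr17:34282744-34287823), the alpha chain of the A molecule, had 29.3 and 44.1 CPM in CKD627 and 66.6 and 51.6 CPM in CKD523 in Tomato-positive cells. In Tomato-negative cells it had 11.8 and 21.4 CPM in CKD627 and 41.4 and 50.9 CPM in CKD523. All 4 pairs were higher in Tomato-positive cells, though CKD523_3 hardly so, and the log2 difference was 0.76 ± 0.21 with an adjusted p of 0.0688 in edgeR. H2-Ab1 (chr17:34257689-34269419), its beta chain, had 48.1 and 85.1 CPM in CKD627 and 162 and 137 CPM in CKD523 in Tomato-positive cells. Its Tomato-negative values were 44.0 and 57.9 CPM in CKD627 and 113 and 144 CPM in CKD523. That made 3 of 4 pairs higher and a log2 difference of 0.28 ± 0.15, with an adjusted p of 0.294. H2-Eb1 (chr17:34305867-34316674), the beta chain of the E molecule, had 28.1 and 44.5 CPM in CKD627 and 71.8 and 77.0 CPM in CKD523 in Tomato-positive cells. Its partners had 25.5 and 28.7 CPM in CKD627 and 49.2 and 54.1 CPM in CKD523. All 4 pairs were higher in Tomato-positive cells, with a log2 difference of 0.46 ± 0.14 and an adjusted p of 0.0913. H2-Ea, the alpha chain that pairs with H2-Eb1, had no count in any library, and whether reads could be counted for it is not known. The promoters of H2-Aa and H2-Eb1 shown above each hold a Y box, as does that of the class I gene H2-Q4.

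The DM genes, which load class II, were H2-DMa, H2-DMb1 and H2-DMb2, and their log2 differences of 0.25 ± 0.25, 0.37 ± 0.18 and 0.23 ± 0.29 did not pass. All 3 had CKD627 libraries below the CKD523 ones in both Tomato groups. The DO genes H2-Oa and H2-Ob, which restrain DM in B cells, and the chain gene H2-Eb2 were not tested for lack of counts.

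Of the markers of immune cells, those of macrophages alone held a gene that passed. That was 1 of 13 tested, near the 7.62% of all genes that passed in either direction. The 12 pan-leukocyte markers summed to 33.1 to 59.0 CPM in Tomato-positive and 49.3 to 61.6 CPM in Tomato-negative libraries. The 20 macrophage markers summed to 133 to 164 CPM in Tomato-positive and 127 to 162 CPM in Tomato-negative libraries. Of these, 1 of 13 tested rose, the lysosomal Cd68, with 14.4 ± 5.33 CPM in Tomato-positive and 5.32 ± 1.25 CPM in Tomato-negative libraries (SD, n = 4 each) and an adjusted p of 0.0153 in edgeR. Csf1r, the receptor of a macrophage growth factor, was lower in Tomato-positive cells in 4 of 4 pairs, with 10.9 ± 6.22 CPM in Tomato-positive and 27.4 ± 11.0 CPM in Tomato-negative libraries and an adjusted p of 0.0617. The median over the 13 was -0.17 on the log2 scale. DESeq2 and limma-voom each called 2, against 2026 and 1389 of all 14284 genes. The 12 dendritic cell markers summed to 10.6 to 29.4 CPM in Tomato-positive and 9.12 to 22.9 CPM in Tomato-negative libraries, and Xcr1 and Siglech had no count in any. The 10 B cell markers in the table summed to 5.01 to 10.1 CPM in Tomato-positive and 1.36 to 5.66 CPM in Tomato-negative libraries, higher in the Tomato-positive library in 4 of 4 pairs. The 13 T and NK cell markers summed to 2.08 to 8.44 CPM in Tomato-positive and 1.28 to 6.97 CPM in Tomato-negative libraries, with Cd3e, Cd3d, Cd8b1, Nkg7 and Klrb1c at 0 in all. The 8 neutrophil markers summed to 0.403 to 6.31 CPM in Tomato-positive and 0.45 to 3.34 CPM in Tomato-negative libraries. Outside the macrophage list 16 immune markers were tested and 0 passed in edgeR, 1 had an unadjusted p under 0.05, Mmp9 of the neutrophil list, which DESeq2 called, and limma-voom called 0. The part of these cells in the class II levels was not tested.

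Class I heavy chains had differences in both directions. Of 12 tested, 10 had a positive estimate, the median was 0.24 on the log2 scale and 0 passed in edgeR. An unadjusted p under 0.05 in edgeR was held by H2-Q4 and H2-Q5, against 25.0% of all genes. DESeq2 called both and limma-voom 0, against 2026 and 1389 of all 14284 genes. H2-K1 (chr17:33996017-34000347), a classical heavy chain, had 749.6 and 918 CPM in CKD627 and 776 and 809 CPM in CKD523 in Tomato-positive cells. In Tomato-negative cells it had 805 and 719 CPM in CKD627 and 501 and 594 CPM in CKD523. Pair CKD627_1 went the other way from the rest, and the log2 difference of 0.33 ± 0.15 had an adjusted p of 0.215. H2-D1 (chr17:35262730-35267499), the other classical heavy chain of the tested members, had 184 and 229.8 CPM in CKD627 and 191.5 and 209.9 CPM in CKD523 in Tomato-positive cells. It had 242 and 196.5 CPM in CKD627 and 139.9 and 169 CPM in CKD523 in Tomato-negative cells. Its pairs showed the same exception, and its log2 difference was 0.15 ± 0.16 with an adjusted p of 0.614.

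Among the non-classical heavy chains, H2-Q4 (chr17:35379617-35385290) had 92.6 and 131 CPM in CKD627 and 126 and 139 CPM in CKD523 in Tomato-positive cells. In Tomato-negative cells it had 84.0 and 88.2 CPM in CKD627 and 95.6 and 84.2 CPM in CKD523. All 4 pairs were higher, 1 Tomato-positive library lay within the Tomato-negative range, and the log2 difference was 0.46 ± 0.14 with an adjusted p of 0.0875. Its exons share 496 bases with the antisense gene Gm11131, and no label or header gives the strand setting of the counts. H2-T23, which makes Qa-1 and presents signal peptides to NK cell receptors, had 72.7 and 91.5 CPM in CKD627 and 92.3 and 80.6 CPM in CKD523 in Tomato-positive cells. It had 72.3 and 66.9 CPM in CKD627 and 84.9 and 89.6 CPM in CKD523 in Tomato-negative cells, so the groups overlapped widely. Its log2 difference was 0.11 ± 0.14 with an adjusted p of 0.692.

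H2-Q6, a gene of the Qa-2 group whose copies H2-Q7, H2-Q8 and H2-Q9 had no count, had 21.6 and 26.2 CPM in CKD627 and 16.8 and 23.1 CPM in CKD523 in Tomato-positive cells. Its Tomato-negative values were 17.4 and 23.5 CPM in CKD627 and 14.5 and 10.9 CPM in CKD523. All 4 pairs were higher, with a log2 difference of 0.44 ± 0.21 and an adjusted p of 0.233. H2-Q2 had 6.12 and 11.01 CPM in CKD627 and 3.61 and 7.08 CPM in CKD523 in Tomato-positive cells, against 9.08 and 9.86 CPM in CKD627 and 3.25 and 5.65 CPM in CKD523 in Tomato-negative cells. Its log2 difference was 0.01 ± 0.28. H2-Q5, which GENCODE lists as a polymorphic pseudogene and which is named here after its values were seen, had 4.59 to 7.66 CPM in Tomato-positive and 1.82 to 4.13 CPM in Tomato-negative libraries. The groups did not overlap, and the log2 difference was 1.15 ± 0.34 with an adjusted p of 0.0779. The other tested heavy chains, all with a mean of 5 CPM or less, ranged from -0.88 to 1.33 on the log2 scale and none passed in edgeR. The pseudogene H2-K2, which lies near H2-K1 and was picked for its values, had 7.76 to 18.8 CPM in Tomato-positive and 6.33 to 7.41 CPM in Tomato-negative libraries, with a log2 difference of 0.57 ± 0.31. H2-Ke6, the dehydrogenase gene, was picked in the same way. It was lower in Tomato-positive cells in 4 of 4 pairs, with 62.5 ± 8.32 CPM in Tomato-positive and 78.1 ± 10.3 CPM in Tomato-negative libraries (SD, n = 4 each) and an adjusted p of 0.186 in edgeR, and its exons share 1419 bases with Gm20427 on the same strand.

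B2m (chr2:122147686-122153083), the light chain, had 419 and 455 CPM in CKD627 and 450.1 and 489 CPM in CKD523 in Tomato-positive cells. The partners in Tomato-negative cells had 352 and 345 CPM in CKD627 and 428 and 487 CPM in CKD523. It was higher in 4 of 4 pairs by a log2 difference of 0.18 ± 0.13, with an adjusted p of 0.43. Per kilobase of exon and averaged over all 8 libraries, B2m stood at 498 CPM per kb, H2-K1 at 249.8, Cd74 at 165, H2-D1 at 75.8, H2-Q4 at 40.5, H2-Ab1 at 38.5, H2-T23 at 28.2, H2-Eb1 at 24.4 and H2-Aa at 10.4 CPM per kb. The class II chains were thus below the classical class I transcripts per length, while Cd74 lay between H2-K1 and H2-D1. Cd1d1, the CD1 molecule that shows lipids to NKT cells, had 2.57 and 4.07 CPM in CKD627 and 1.84 and 2.07 CPM in CKD523 in Tomato-positive cells. It had 3.16 and 3.37 CPM in CKD627 and 0.907 and 3.27 CPM in CKD523 in Tomato-negative cells. Its log2 difference was 0.05 ± 0.49, at 24 to 84 counts a Tomato-positive library.

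**Figure D2:**
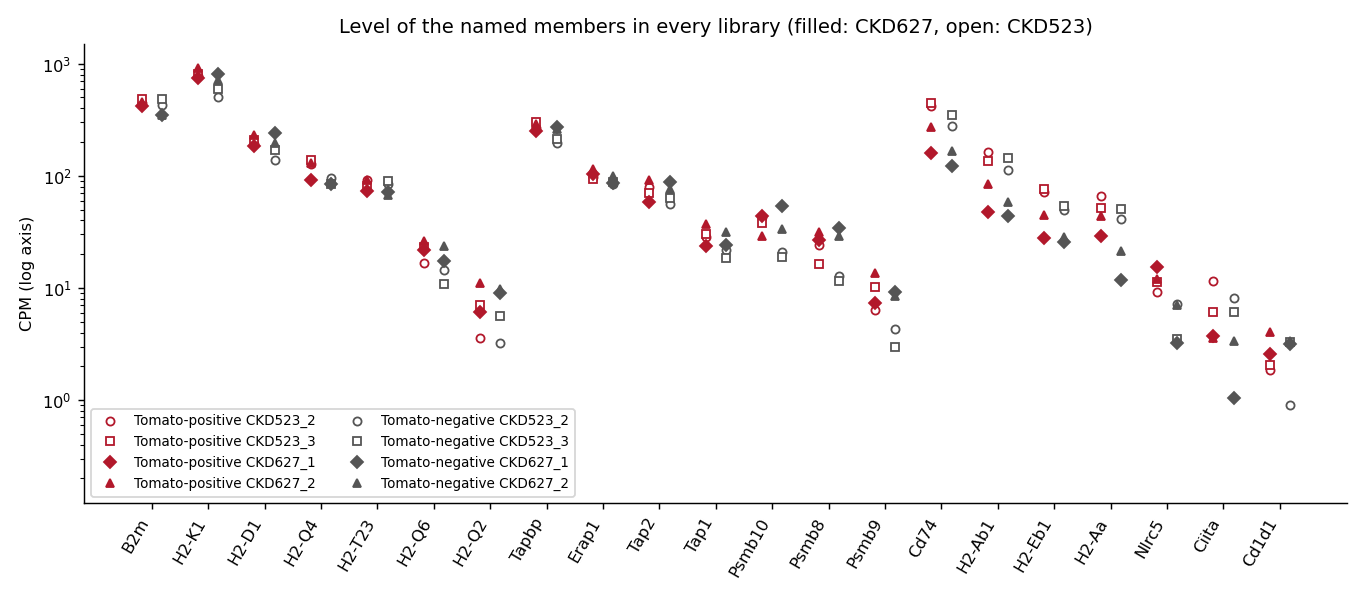
CPM of the 21 named members (y axis, log scale) in each of the 8 libraries, Tomato-positive (red) left of Tomato-negative (grey), with filled symbols for CKD627 and open ones for CKD523. Class II genes (Cd74 to H2-Aa) split by prefix within each Tomato group, and the 4 Tomato-positive libraries of Nlrc5 lie above the Tomato-negative ones.

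Summed over each class, both classes were mostly higher in Tomato-positive cells, by amounts that overlapped. Class I, the heavy chains with B2m, summed to 1566 and 1881 CPM in CKD627 and 1672 and 1773 CPM in CKD523 in Tomato-positive cells. In Tomato-negative cells it summed to 1598 and 1468 CPM in CKD627 and 1278 and 1451 CPM in CKD523. Class II, the chains with the DM and DO genes and Cd74, summed to 298.6 and 495 CPM in CKD627 and 804 and 771 CPM in CKD523 in Tomato-positive cells. Its Tomato-negative sums were 233 and 308 CPM in CKD627 and 537 and 661 CPM in CKD523. The log2 difference within pairs was 0.25 ± 0.19 for class I, with 3 of 4 pairs higher (as a share of unscaled counts, class I was 0.168% in both libraries of the fourth, CKD627_1), and 0.46 ± 0.21 for class II, with 4 of 4 higher (mean and SD over 4 pairs, no test). Class II exceeded class I in that difference in 3 of 4 pairs, by 0.21 ± 0.20 on average, so the excess was about the size of its spread. Cd74 made up 54.0% of the class II sum. Without B2m and Cd74 the differences were 0.29 ± 0.28 for class I and 0.40 ± 0.27 for class II. Over genes, the medians without pair CKD523_2 were 0.20 for class II and 0.26 for class I heavy chains. The sums did not turn: their mean class II excess was 0.22 without that pair, and 0.15 to 0.30 on leaving out each pair.

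**Figure D3:**
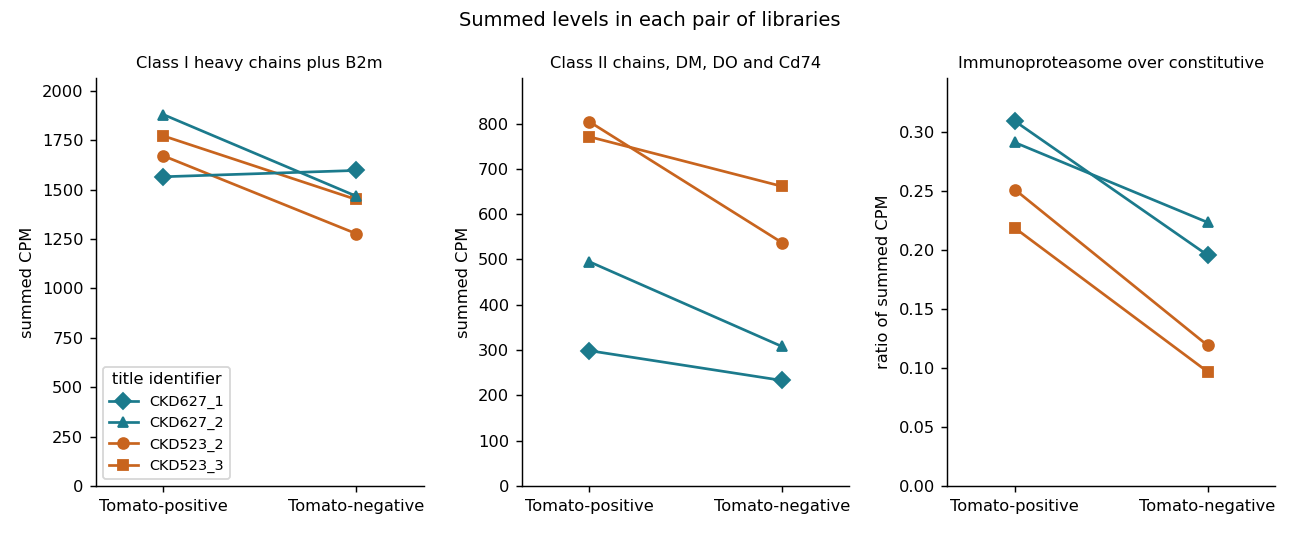
Summed CPM of class I and of class II genes, and the ratio of immunoproteasome to constitutive catalytic subunits (y axes, from 0), in Tomato-positive (left) and Tomato-negative (right) libraries joined by identifier. Class I was higher in the Tomato-positive library in 3 of 4 pairs (not in CKD627_1), class II in 4 of 4, and class II was lower in both CKD627 pairs than in the CKD523 pairs.

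The 8 genes of peptide supply and loading all had positive estimates, with a median of 0.27 on the log2 scale, and 0 passed in edgeR, DESeq2 or limma-voom, nor had any an unadjusted p under 0.05. Psmb9, an immunoproteasome subunit, had 7.4 and 13.7 CPM in CKD627 and 6.38 and 10.2 CPM in CKD523 in Tomato-positive cells. Its Tomato-negative values were 9.14 and 8.46 CPM in CKD627 and 4.31 and 2.95 CPM in CKD523. Pair CKD627_1 was the exception, and the log2 difference was 0.67 ± 0.35. Psmb8 had 27.0 and 31.8 CPM in CKD627 and 24.2 and 16.5 CPM in CKD523 in Tomato-positive cells, against 34.3 and 28.9 CPM in CKD627 and 12.7 and 11.6 CPM in CKD523 in Tomato-negative cells. Psmb10 had 43.5 and 29.1 CPM in CKD627 and 42.7 and 38.0 CPM in CKD523 in Tomato-positive cells, against 53.9 and 33.8 CPM in CKD627 and 20.8 and 18.8 CPM in CKD523 in Tomato-negative cells. For Psmb10 both CKD523 pairs were higher in Tomato-positive cells and both CKD627 pairs lower. Over all 4 pairs the log2 differences were 0.30 ± 0.22 for Psmb8 and 0.38 ± 0.26 for Psmb10.

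The constitutive catalytic subunits that these replace (Psmb5, Psmb6 and Psmb7) went the other way in sum, except in pair CKD627_1, where both sums were lower in Tomato-positive cells. Their sum was lower in Tomato-positive cells in 4 of 4 pairs, with 274 ± 23.1 CPM in Tomato-positive and 369 ± 86.3 CPM in Tomato-negative libraries (SD, n = 4 each). The Tomato-negative library CKD627_1 stood apart with 497 CPM. The mean log2 difference of the sum over pairs was -0.41, and -0.22 without pair CKD627_1. The ratio of the 3 immunoproteasome subunits to these 3 was 0.309 and 0.291 in CKD627 and 0.251 and 0.219 in CKD523 in Tomato-positive cells. In Tomato-negative cells it was 0.196 and 0.223 in CKD627 and 0.119 and 0.0968 in CKD523. It was higher in 4 of 4 pairs, by 0.82 ± 0.37 on the log2 scale (mean and SD over pairs, no test). The immunoproteasome sum alone differed by 0.96 in CKD523_2, 0.96 in CKD523_3, -0.32 in CKD627_1 and 0.07 in CKD627_2. For the constitutive sum these values were -0.12, -0.22, -0.98 and -0.31. In the CKD627 pairs the higher ratio thus came mainly from its lower denominator. Of the 14 conventional proteasome genes, Psmb5, Psmb6 and Psmb7 among them, 0 passed in edgeR or limma-voom and 1 passed in DESeq2. An unadjusted p under 0.05 in edgeR was held by 6 of the 14, against 25.0% of all genes, and the median was -0.37. The lowest p-values there were those of Psma6 and Psma4, at -0.53 ± 0.17 and -0.45 ± 0.15 with adjusted p-values of 0.0874 and 0.104.

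Tap1 and Tap2, the subunits of the peptide transporter, differed little between the groups. Tap1 had 23.8 and 37.1 CPM in CKD627 and 28.3 and 30.4 CPM in CKD523 in Tomato-positive cells, against 24.4 and 31.3 CPM in CKD627 and 21.9 and 18.4 CPM in CKD523 in Tomato-negative cells. Tap2 had 58.1 and 91.0 CPM in CKD627 and 79.5 and 70.1 CPM in CKD523 in Tomato-positive cells, against 88.2 and 75.9 CPM in CKD627 and 56.5 and 63.1 CPM in CKD523 in Tomato-negative cells. Each was higher in 3 of 4 pairs, with log2 differences of 0.33 ± 0.17 for Tap1 and 0.08 ± 0.19 for Tap2. The exons of Tap1 and Psmb9 share 212 bases on opposite strands. Tapbp, which codes for tapasin, had 251 and 288.5 CPM in CKD627 and 266.5 and 299 CPM in CKD523 in Tomato-positive cells, against 273 and 262.5 CPM in CKD627 and 195 and 213 CPM in CKD523 in Tomato-negative cells. Its log2 difference was 0.24 ± 0.15, close to the 0.23 ± 0.16 of the tapasin-like Tapbpl. The trimming peptidase Erap1 had 105 and 115 CPM in CKD627 and 97.0 and 93.8 CPM in CKD523 in Tomato-positive cells, against 86.0 and 99.4 CPM in CKD627 and 85.2 and 87.7 CPM in CKD523 in Tomato-negative cells. It was higher in 4 of 4 pairs, by a log2 difference of 0.19 ± 0.12 with an adjusted p of 0.369.

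Of the coactivators, Nlrc5 showed the clearer separation. It had 15.3 and 12.1 CPM in CKD627 and 9.15 and 11.3 CPM in CKD523 in Tomato-positive cells, against 3.22 and 7.12 CPM in CKD627 and 7.26 and 3.53 CPM in CKD523 in Tomato-negative cells. Every Tomato-positive library lay above every Tomato-negative library. The log2 difference was 1.24 ± 0.35 and its adjusted p of 0.0696 missed the threshold in edgeR, while DESeq2 gave 0.0118. Ciita had 3.73 and 3.59 CPM in CKD627 and 11.5 and 6.10 CPM in CKD523 in Tomato-positive cells, against 1.05 and 3.37 CPM in CKD627 and 8.09 and 6.16 CPM in CKD523 in Tomato-negative cells. Its log2 difference of 0.55 ± 0.39 had an adjusted p of 0.412, and the CKD523 libraries of both groups were above those of CKD627. Of the 13 genes of the promoter complex and its partners, 0 passed in edgeR, and the median was 0.14. An unadjusted p under 0.05 in edgeR was held by 8 of the 13, against 25.0% of all genes. DESeq2 called 4 of the 13 and limma-voom 1, against 2026 and 1389 of all 14284 genes. The lowest p-values were those of Nfkb1, at 0.53 ± 0.14 with an adjusted p of 0.0534, and Rfxap, at -0.72 ± 0.21 with an adjusted p of 0.0773; the RFX subunit Rfx5 stood at 0.51 ± 0.17.

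Interferon can switch on both classes. Of 18 signalling genes of its pathway 1 rose, against the 3.82% of all genes that passed as higher. It was the transcription factor Irf1, with 318 ± 76.6 CPM in Tomato-positive and 179 ± 65.8 CPM in Tomato-negative libraries (SD, n = 4 each). Its log2 difference was 0.87 ± 0.15, with an adjusted p of 0.0127, or 0.188 without pairing, and it was higher in 4 of 4 pairs. The receptor chains Ifnar1 (0.46 ± 0.13) and Ifngr1 (0.42 ± 0.13) and the factor Irf7 (0.55 ± 0.17) were higher in 4 of 4 pairs and did not pass in edgeR. Of 39 tested interferon targets 8 rose and 1 fell, with a median of 0.38, while 7.62% of all genes passed in either direction. Oas2, an antiviral synthetase, averaged 24.0 ± 10.01 CPM in Tomato-positive and 3.51 ± 2.06 CPM in Tomato-negative libraries. Its log2 difference of 2.87 ± 0.25 had an adjusted p of 0.00113, the lowest of that list in edgeR. Ifi47 rose by 1.20 ± 0.19 and Parp14 by 0.96 ± 0.21, while Ifit3 fell, at -1.29 ± 0.17 with an adjusted p of 0.00514. Without pairing 1 of the 39 targets passed, which was Oas2.

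Other genes around antigen presentation were examined as lists. Over all 14284 genes, 25.0% had an unadjusted p under 0.05 in edgeR, DESeq2 called 2026 and limma-voom 1389. Of 13 tested genes of endosomal processing 1 fell, the thiol reductase Ifi30, with 52.4 ± 7.71 CPM in Tomato-positive and 80.8 ± 8.72 CPM in Tomato-negative libraries and a log2 difference of -0.63 ± 0.16 (adjusted p 0.0439 in edgeR). Cathepsin S, Ctss, which cuts the invariant chain, was at 1.06 ± 0.44 and did not pass. Of 8 tested costimulation genes 0 passed in edgeR or limma-voom, 4 passed in DESeq2 and 5 had an unadjusted p under 0.05, with a median of 0.63, and Icosl, Lgals9 and Cd276 were higher in 4 of 4 pairs. Of 10 tested genes of folding and loading in the endoplasmic reticulum 0 passed in edgeR, DESeq2 or limma-voom and 2 had an unadjusted p under 0.05, with a median of -0.02 and Calr, which codes for calreticulin, at -0.19 ± 0.13. The 4 proteasome activators had a median of -0.02, and 0 passed in any of these tools or at an unadjusted p under 0.05. Of 6 tested MHC-like genes outside the H2 complex 1 fell, Azgp1, at -1.77 ± 0.26, while DESeq2 called 2, limma-voom 3, and 4 had an unadjusted p under 0.05. Fcgrt, which codes for the heavy chain of the neonatal Fc receptor, was lower in 4 of 4 pairs at -0.57 ± 0.16 with an adjusted p of 0.0685 in edgeR, and Mr1 stood at 0.45 ± 0.17.

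The Tomato difference was also taken within each prefix, from 2 pairs each, in a fit of all 8 libraries. In CKD627 the class II median was 0.39 and the class I heavy chain median 0.11, and in CKD523 they were 0.44 and 0.31. The 8 genes of peptide supply and loading had a median of 0.06 in CKD627, with 5 positive, and 0.51 in CKD523, with 8 positive. In CKD627 1 member passed edgeR's test, H2-Aa, with 1.17 ± 0.22 and an adjusted p of 0.0205, while 7.52% of all genes passed. In CKD523 1 member passed, Psmb10, with 1.03 ± 0.20 and an adjusted p of 0.0128, while 8.44% of all genes passed. Psmb10 was at -0.26 ± 0.19 in CKD627, and H2-Aa at 0.35 ± 0.22 in CKD523. The test of the difference between prefixes called 0 members in edgeR, and 0.14% of all genes. At an unadjusted p under 0.05 it held 3 members, against 13.8% of all genes. These were Psmb10, lower in CKD627 by a log2 difference of -1.29 ± 0.27 (adjusted p 0.103), Psmb8 at -0.82 ± 0.35 (adjusted p 0.343) and H2-Aa at 0.82 ± 0.31 (adjusted p 0.293).

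**Figure D4:**
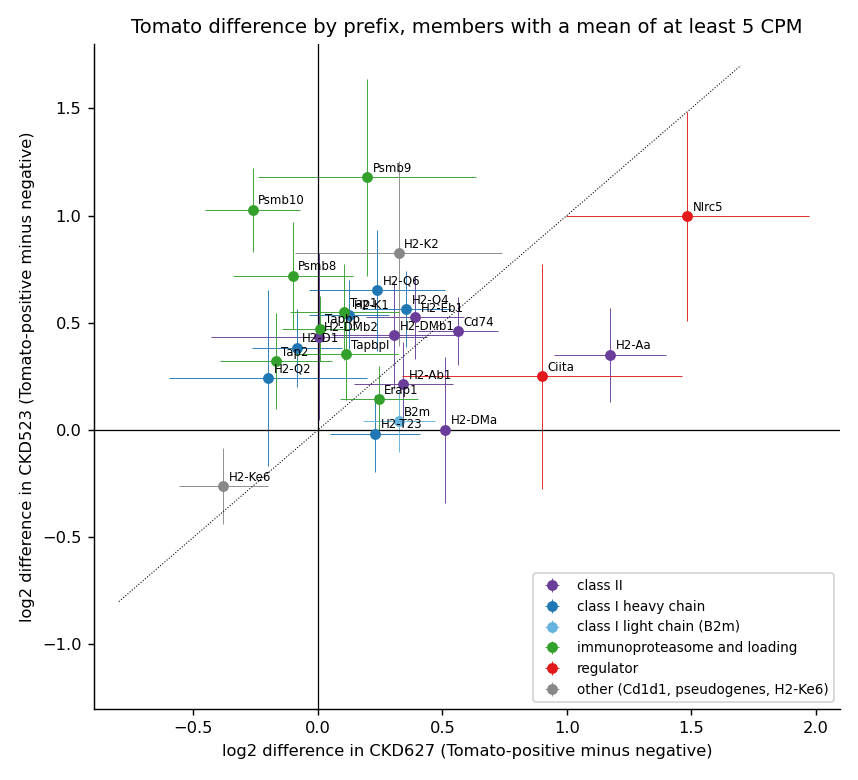
Log2 difference between Tomato-positive and Tomato-negative cells in CKD627 (x axis) and in CKD523 (y axis) of the members with a mean of at least 5 CPM, with SE bars and a dotted line of equal difference. Psmb10, Psmb8 and Psmb9 lie above the line, at 1.03, 0.72 and 1.18 in CKD523, and H2-Aa lies below it, at 1.17 in CKD627.

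Class II levels were split more by prefix than by Tomato group. The class II sum was 233 to 495 CPM in CKD627 and 537 to 804 CPM in CKD523 libraries, a ratio of 0.481 with no overlap, while class I sums of 1468 to 1881 CPM in CKD627 and 1278 to 1773 CPM in CKD523 overlapped, with a ratio of 1.055. Of the 7 tested class II genes, 6 (Cd74, H2-Ab1, H2-Eb1, H2-DMa, H2-DMb1 and H2-DMb2) had all 4 CKD627 libraries below all 4 CKD523 libraries, and so were Ciita and H2-T-ps. These 8 of 34 members compare with 10.4% of all genes. For H2-Aa the prefixes overlapped, with means of 26.7 CPM in CKD627 and 52.7 CPM in CKD523. The ratio of means was 0.485 for Cd74, 0.423 for H2-Ab1, 0.503 for H2-Eb1 and 0.368 for Ciita. Higher in every CKD627 library were 3 members, H2-M3, Psmb8 and Tapbpl, against 9.52% of all genes, and the ratio for Psmb8 was 1.88. Libraries of 1 identifier enter each prefix as both Tomato groups, so each prefix holds 2 identifiers and no test of the levels was made.

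Proximal tubule markers moved with class II in that split. They summed to 5083 to 9542 CPM in CKD627 and 14420 to 34420 CPM in CKD523, and 14 of the 19 tested were lower in every CKD627 library. The summed pan-leukocyte markers did not: their sum was 53.9 to 61.6 CPM in CKD627 and 33.1 to 60.3 CPM in CKD523. The leukocyte antigen Ptprc was at 8.20 to 9.41 CPM in CKD627 and 1.59 to 3.31 CPM in CKD523. Macrophage markers summed to 133 to 162 CPM in CKD627 and 127 to 164 CPM in CKD523, and single ones differed in direction. Csf1r was at 1.988 to 21.93 CPM in CKD627 and 14.22 to 41.35 CPM in CKD523. Cd68 was at 4.323 to 11.43 CPM in CKD627 and 5.458 to 21.76 CPM in CKD523. Both thus lay lower in CKD627, with overlap. Of the 13 tested macrophage markers, 1 was higher in every CKD627 library, Lyz2, and 0 were lower in every one. Dendritic cell markers summed to 15.4 to 29.4 CPM in CKD627 and 9.12 to 22.3 CPM in CKD523, and B cell markers to 5.39 to 10.1 CPM in CKD627 and 1.36 to 5.92 CPM in CKD523. Endothelial markers, from cells that also carry MHC molecules, summed to 635 to 1290 CPM in CKD627 and 120 to 464 CPM in CKD523. The part of the cell mixture in the class II levels was not tested. The T and NK cell sum was 4.22 to 8.44 CPM in CKD627 and 1.28 to 2.71 CPM in CKD523. The neutrophil sum was 2.57 to 6.31 CPM in CKD627 and 0.403 to 1.92 CPM in CKD523. These sums were higher in CKD627 without overlap, the other direction from class II, while the sums of the other immune lists overlapped. They rest on few counts: 1 of the 13 T and NK cell markers and 1 of the 8 neutrophil markers had enough to be tested. Over all genes, 9.52% lay higher in every CKD627 library. Between the Tomato groups the summed proximal tubule markers ran in the reverse order of class II. In each pair their sum was lower in the Tomato-positive library. Single proximal tubule genes differed from it. In CKD627, Lrp2 had 359 and 440 CPM in Tomato-positive against 198 and 300 CPM in Tomato-negative libraries. Slc34a1 had 1167 and 2027 against 1074 and 1607 CPM there. In CKD523 both genes were lower in the Tomato-positive libraries, and neither passed in edgeR over all pairs.

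**Figure D5:**
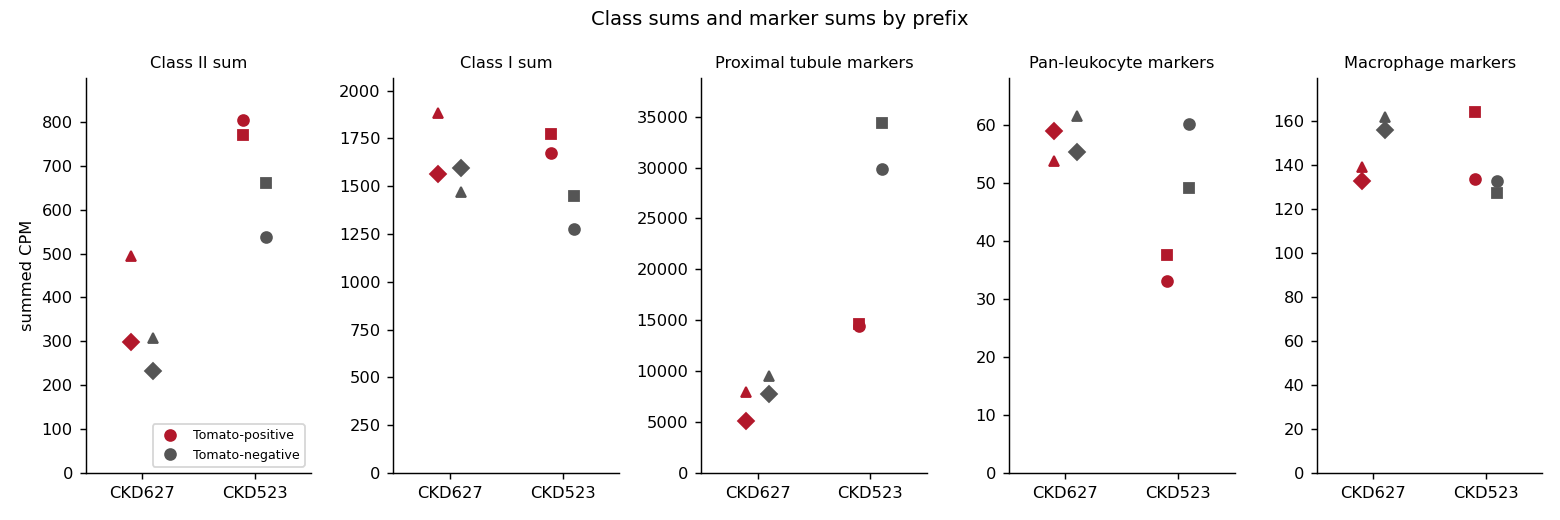
Summed CPM (y axes, from 0) of class II and class I genes and of markers of proximal tubule, all leukocytes and macrophages in CKD627 (left) and CKD523 (right), with Tomato-positive libraries in red and Tomato-negative ones in grey, 2 of each per prefix. Class II and proximal tubule sums of the prefixes do not overlap, those of class I, leukocytes and macrophages do.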

How the data were processed

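RNA of 8 libraries was measured as counts per gene symbol. Per the labels' protocols, a Norgen single cell kit gave the total RNA and a NEBNext Ultra kit the libraries. The authors deposited raw read counts, aligned with subread per the file headers, and the submitters' processing notes name mm10, limma 3.46.0 and edgeR 3.32.1. No source used here gives the counter, annotation, strand setting or treatment of reads with several matches. Positions and exon lengths came from GENCODE M21 (GRCm38), where 52 of the 57 symbols matched, and promoters from RefSeq.

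Counts were filtered with filterByExpr, which left 14284 genes, scaled by TMM and tested with edgeR 4.0.16 in R 4.3.3 (quasi-likelihood test, 2-sided, Benjamini-Hochberg over all genes, threshold 0.05), with the title identifier as a block because the rule for these genes asks for pairs. Another fit held a Tomato difference per prefix. SE is the log2 difference over the root of F. CPM are counts per 1000000 of the TMM-scaled library total, and levels between genes were compared per kb of exon. Libraries sharing an identifier correlated after removal of group means at 0.46, 0.32, 0.33 and 0.47, above the limit of 0.1 for pairing; libraries of the other identifier of the same prefix correlated as well, at 0.30 to 0.47. Libraries of a group differed beyond the noise of sampling (15.5 to 191 chi-square units per degree of freedom), so each counted as 1 sample. Scripts were tested on simulated data.

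The members and the gene lists were chosen with earlier results of these data known. Values in every library are given for members past the threshold and for a set of 17 genes chosen whatever their result, plus H2-Q and H2-T members averaging 5 CPM or more, and up to 6 genes with the smallest p of each other list; any further member was picked with its values in view. Tried besides were the fit without pairing, the prefix as a covariate, other scaling and filters, DESeq2 1.42.0, limma-voom (limma 3.58.1), and leaving out each pair.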

Additional observations from a re-analysis of the deposited data

Results flagged for a closer look

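Cd1d1 had 0.907 CPM in the Tomato-negative library CKD523_2, far below the 3.16, 3.27 and 3.37 CPM of the other 3 Tomato-negative libraries. The gap to the nearest was 0.916 of the range of that group, above the 95% critical value of Dixon for 4 samples. It was the only such value in 48 groups examined, and chance gives about 1 in 20.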

How the results depend on the processing

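Of 273 values of the 21 named members under the alternatives, 241 kept their direction and side of the threshold, 9 lost a call, all of them of Cd74, and 9 gained one (H2-Aa, Nlrc5, H2-Q4 and H2-Eb1). The other 14 turned sign, none of them a call. All 7 class II genes had positive estimates under all alternatives. For Cd1d1 these were log2 differences of -0.0202 without the replicate block, -0.0352 with the prefix as a covariate and -0.0367 with limma-voom, and leaving out each pair gave -0.23 to 0.27. For H2-Q2 they were -0.0199 with upper-quartile factors, -0.00602 without a filter, -0.000428 with DESeq2 and -0.0044 with limma-voom, and leaving out each pair gave -0.12 to 0.21. Leaving out each pair gave -0.0098 to 0.17 for H2-T23 and -0.067 to 0.30 for Tap2.

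The fit without the replicate block called 85 genes and 0 members, against 1089 and 1 in the paired fit, and 2 genes in place of 20 in the test between prefixes, which called 0 with library size only. Members called numbered 0 with DESeq2's size factors, upper-quartile factors or a mean of at least 1 CPM, 2 with library size only (Cd74 and H2-Aa) and 2 without a filter (H2-Aa and Nlrc5), and 5 with DESeq2, which called 2026 genes. With the prefix in place of the identifier as covariate it was 1, Nlrc5 (adjusted p 0.0435), and no longer Cd74 (0.083). Leaving out a pair gave 203 to 1319 genes and 0 to 3 members: 0 without CKD523_2, CKD523_3 or CKD627_2, and 3 without CKD627_1. The cause of these changes was not tested.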
